A study of Mus musculus with 4 samples.

Results

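Cycling mammary epithelial cells of the E15.5 mouse embryo were 81 of the 445 mammary epithelial cells of that library, 18.2% (exact 95% binomial interval 14.7 to 22.1), and 81 of the 816 cells kept at E15.5. They were chosen from the deposited table of unique molecular identifiers (UMIs, each standing for a single captured transcript). Barcodes under 5000 UMIs or over 6% mitochondrial UMIs were left out. A kept cell was called mammary epithelial when Epcam, Krt8, Krt18, Krt5, Krt14 and Krt15 together had at least 10 UMIs and more than 2 times the UMIs of Col1a1, Col1a2 and Col3a1, with at least 5 UMIs of Krt8 and Krt18. It was called cycling when Top2a, Mki67, Cenpf, Hmmr, Nusap1 and Birc5 together had at least 10 UMIs, and the other 364 mammary cells are called non-cycling. These names are ranges of UMI counts and not measured divisions.

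The study followed how epithelial lineages appear in the mouse mammary gland, using single-cell RNA-seq of wild-type C57B6 females (B6/N in the study's methods) in embryos of 3 stages (E13.5, E14.5 and E15.5) and in newborns (P0). Each stage is a single library of tissue pooled from several embryos or pups, so no value has a biological replicate, and differences between stages and between libraries cannot be told apart. Living cells were sorted as EpCAM+ epithelium and EpCAM- mesenchyme after CD45+, CD31+ and Ter119+ cells had been gated out. Over the 4 libraries 5896 barcodes were deposited and 1630 cells passed the filters, of 2642 barcodes and 816 cells at E15.5. A barcode of the E15.5 library also occurred in the E13.5 library and another in the E14.5 library, none shared with P0 and none among kept cells.

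Before a cell divides it licenses its replication origins with the Mcm2 to Mcm7 helicase, copies its DNA in S phase while it makes nucleotides and histones, and in G2 and mitosis builds a spindle and condenses its chromosomes. Genes of the first wave are classical targets of E2F factors, and genes of the second wave are classical targets of the DREAM, B-Myb and FoxM1 complexes, which act through the cell cycle homology region of their promoters. Many of these promoters also hold CCAAT boxes, which NF-Y binds. In the mammary rudiment, growth of the bud resumes as it sprouts into the mesenchyme around E15.5, and the basal and luminal lineages separate over the same period.

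Most mammary cells had few or no UMIs of the genes that chose the cycling cells. Of the 445 mammary cells, 247 had 0 UMIs of the 6 genes, 109 had 1 to 3, 8 had 4 to 9, 13 had 10 to 19 and 68 had 20 or more. The median in the cycling cells was 44 and the highest 135. Just inside the limit 2 cells had 10 UMIs and 3 had 11. Just outside it a single cell each had 9, 8, 6 and 5 UMIs, and 2 cells had 7. The limit is a fixed number of UMIs, and the cycling cells were deeper, with a median of 34422 UMIs (15442 to 96675) against 23691.5 (6036 to 72392). When the 438 mammary cells with at least 10000 UMIs were split into 4 groups of rising depth, cycling cells were 2 of 110, 4 of 109, 15 of 109 and 60 of 110, which is 1.82%, 3.67%, 13.8% and 54.5% (44.8 to 64.1). With a limit that scales with depth, 4 UMIs in each 10000, 16.2% of the mammary cells were cycling, and their shares in the same groups of depth, a count added after seeing the data, were 1.82%, 4.59%, 12.8% and 46.4% (36.8 to 56.1). The rise with depth was thus also found with the scaled limit. Binomial and Poisson intervals here cover counting error only.

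**Figure D1:**
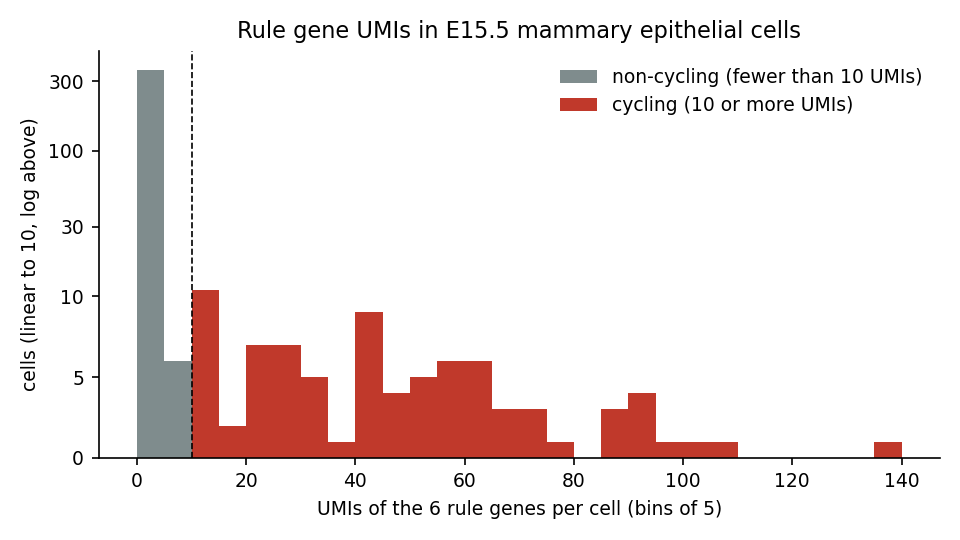
UMIs of the 6 rule genes per E15.5 mammary epithelial cell (x axis, bins of 5) against the number of cells (y axis, linear to 10 and logarithmic above), non-cycling cells in grey and cycling cells in red. Only 6 cells lie between 5 and 9 UMIs and 11 between 10 and 14, on either side of the dashed limit at 10.

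To compare at matched depth, each cycling cell was paired with the non-cycling mammary cell nearest to it in total UMIs. The 81 matched cells had a median of 31763 UMIs, and the summed UMIs were 3163684 in cycling and 2868159 in matched cells. A level is given as the summed UMIs of a gene in each 1000000 UMIs of the class (CPM), and a ratio is the level in cycling cells over that in matched cells with its exact conditional 95% interval. Genes with at least 50 UMIs over both classes were measured, and a gene counts as higher or lower when its ratio is past 1.5-fold. Among 7930 measured genes, 969 (12.2%) were higher in cycling cells and 424 (5.35%) were lower, and the median log2 ratio was 0.04. When every cell was thinned to 5000 UMIs and all non-cycling cells were used, 477 of 5077 genes were higher and 446 lower. The same contrast chose the cells, so these values are descriptions. A gene that is low in non-cycling cells reached the minimum of 50 UMIs only by being high in cycling cells, so no count of members supports anything by itself.

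Of the 4 marker genes of cycling cells, 3 are in the rule, which fixes their direction, so their values are a description. Kif11 is not in the rule, but it reached the UMI minimum through cycling cells, so its values are a description too. Top2a, the topoisomerase that untangles replicated DNA, had 396 CPM (374 to 418) in cycling and 9.07 CPM (5.92 to 13.3) in matched cells, a ratio of 43.7 (29.7 to 67.1). After each cell was thinned to 10000 UMIs, Top2a had a lowest count of 0, a median of 4 and a highest of 23 in cycling cells, and 0, 0 and 3 in non-cycling cells. Mki67, the Ki-67 antigen that coats mitotic chromosomes, had 219 against 5.93 CPM, with 0, 2 and 11 UMIs per thinned cycling cell. Hmmr, a microtubule-binding protein of the spindle, had 130 against 1.74 CPM. Kif11, the kinesin that pushes spindle poles apart, is the marker that the rule did not use. It had 135 CPM (122 to 148) from 427 UMIs in cycling cells and 1.05 CPM (0.216 to 3.06) from 3 UMIs in matched cells. In thinned cells, 65.4% of cycling and 2.52% of non-cycling cells had a UMI of Kif11, beside 1.02% of non-cycling mesenchymal cells. For Top2a the shares were 90.1%, 5.04% and 9.69%. The other rule genes were of the same kind, with ratios of 39.5 for Cenpf, 34.1 for Birc5 and 123 (41.9 to 600) for Nusap1, which rests on 3 UMIs in matched cells.

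Most cycling cells were high in both S and G2/M genes. The S level of a cell is its UMIs of 55 origin licensing and replication genes, and the G2/M level its UMIs of 87 kinesin, kinetochore, checkpoint and cyclin genes, both after thinning to 10000 UMIs and without any rule gene. The G2/M level holds 23 genes of the cyclin list, some of which, such as Ccne1, Ccne2, Cdk2, Cdc25a, E2f2, E2f7 and E2f8, are known from G1 and S phase, so both levels may count S phase genes. The S level had a median of 34 (7 to 81) in cycling cells, 8 in matched and 9 in all non-cycling cells. The G2/M level had a median of 56 (11 to 115) against 14 in matched and in all non-cycling cells. Limits were set at the 95th percentile of the 357 non-cycling cells with enough UMIs, 21 for S and 24.2 for G2/M. Of the 81 cycling cells, 52 (64.2%, 52.8 to 74.6) were above both limits, 21 (25.9%, 16.8 to 36.9) above the G2/M limit alone, 3 (3.70%) above the S limit alone and 5 (6.17%) above neither. With the remaining 64 genes alone as the G2/M level, a choice made after seeing the data, the share above both limits was again 64.2% and the share above the G2/M limit alone 23.5%. The classes are ranges, since 21 cycling cells lay within 5 UMIs of the S limit and 7 within 5 UMIs of the G2/M limit. Among non-cycling cells, 4 were above both limits, 12 above the S limit alone and 14 above the G2/M limit alone. The limits were set on these same cells, which fixes in advance how many lie above each limit. The rule genes are mostly known from G2 and mitosis, and whether cells early in S phase stand among the non-cycling cells was not tested. The highest S level of a non-cycling cell was 43, and a single non-cycling cell reached the cycling median of 34.

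**Figure D2:**
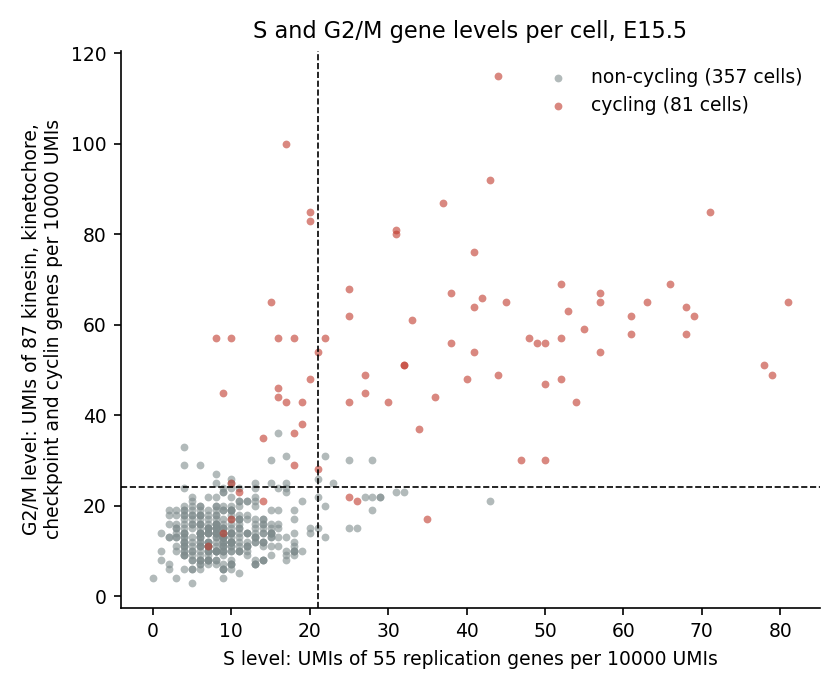
S level (x axis) against G2/M level (y axis), in UMIs per 10000 UMIs, for 81 cycling cells in red and 357 non-cycling cells in grey, with dashed lines at the limits of 21 and 24.2. Of the cycling cells, 52 lie above both lines, 21 above the G2/M line alone and 5 below both.

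Origin licensing and replication genes were almost uniformly higher. Of 55 listed genes, 45 were measured, 44 were higher than in matched cells (beside 12.2% of all measured genes) and none was lower, with a median log2 ratio of 1.95, and the list summed to 3445 against 987 CPM, a ratio of 3.49 (3.35 to 3.64). Nasp, the chaperone that carries histones H3 and H4, had 396 against 150 CPM, 2.64-fold (2.37 to 2.96). Thinned cells had 0, 4 and 10 UMIs of Nasp (lowest, median, highest) when cycling and 0, 1 and 8 when not, so the ranges overlap almost fully. Pclaf, the PCNA-associated factor, had 269 CPM (251 to 287) against 22.3 CPM (17.2 to 28.5), a ratio of 12.04 (9.33 to 15.8). Pcna itself, the sliding clamp of DNA polymerases, had 171 against 49.5 CPM, 3.46-fold (2.87 to 4.19), and 72.8% of thinned cycling cells against 40.1% of non-cycling cells had a UMI, with 27.04% in non-cycling mesenchyme. The helicase subunits were uneven. Mcm3 had 92.6 against 8.02 CPM, 11.6-fold (7.55 to 18.5), and Mcm5 was 7.25-fold (4.37 to 12.8) higher. Mcm6 was 3.85-fold, Mcm7 2.67-fold and Mcm2 2.61-fold higher. Ticrr, which helps load Cdc45 at origins, had the highest ratio of the list, 13.4 (4.96 to 50.7) on 59 against 4 UMIs. The lowest was Gins2, a subunit of the active helicase, at 0.85 (0.55 to 1.31) on 44 against 47 UMIs.

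Nucleotide synthesis was less uniform. Of 22 genes 21 were measured and 13 were higher, beside 12.2% of all measured genes. None was lower, and the median log2 ratio was 0.73. Rrm2, the regulated subunit of ribonucleotide reductase, had 85.7 against 9.07 CPM, 9.45-fold (6.31 to 14.7), while its partner Rrm1 was 3.42-fold (2.64 to 4.48) higher. Tyms, thymidylate synthase, was 4.46-fold higher and Dut, which clears dUTP, 5.18-fold (3.94 to 6.89). Nme1, a nucleoside diphosphate kinase, had 191 against 197 CPM, 0.97-fold (0.86 to 1.09), and Uck2, a uridine-cytidine kinase, was at 0.94 (0.68 to 1.29). Among 23 genes of DNA repair and cohesion in S phase, 13 were measured and 11 were higher, with a median log2 ratio of 2.75. Esco2, which acetylates cohesin as forks pass, had 161 UMIs in cycling cells and 1 in matched cells, and 34.6% of thinned cycling cells had a UMI against 0.560% of non-cycling cells and 1.02% of non-cycling mesenchymal cells.

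Replication-dependent histone messages end in a stem-loop and mostly lack the poly(A) tail that this chemistry captures, and 20 of the 31 listed histone genes were under the minimum. Of the 11 measured, 10 were higher (beside 12.2% of all measured genes), with a median log2 ratio of 3.52. Hist1h2ap, an H2A gene, had 326 CPM (306 to 346) against 19.9 CPM (15.0 to 25.7), 16.4-fold (12.6 to 21.8). Its thinned counts were 0, 2 and 24 in cycling cells and 0, 0 and 5 in non-cycling cells, so the upper ends differ while many cycling cells are at or near 0. Hist1h3c, an H3 gene, was at 29.5 (7.83 to 248) on 65 against 2 UMIs. Hist1h2bc, an H2B gene, was the exception at 0.87 (0.69 to 1.09). Chromatin proteins of dividing cells were higher for 20 of 31 measured members of 32, with a median log2 ratio of 1.03 and none lower. Hmgb2, a DNA-bending protein, had 1405 against 200.1 CPM, 7.02-fold (6.43 to 7.67), and its thinned counts were 0, 13 and 40 against 0, 2 and 11. The histone variant H2afz was 2.19-fold (2.07 to 2.31) higher, and H2afx, the variant phosphorylated at DNA breaks, 9.48-fold (6.69 to 13.8). H3f3b, which encodes replacement histone H3.3, had 3465 against 2260 CPM, 1.53-fold (1.49 to 1.58). Among lamins, Lmnb1 was 3.80-fold (3.04 to 4.80) higher and Lmna, the A-type lamin, was at 0.97 (0.92 to 1.02).

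The cyclin-dependent kinase that drives mitosis and its cyclins were high in cycling cells and near 0 in matched cells. Of 23 cyclins, kinases and their regulators, 20 were measured and 19 were higher, beside 12.2% of all measured genes. The median log2 ratio was 2.06. Cdk1, the mitotic kinase, had 157 CPM (143 to 171) against 4.53 CPM (2.41 to 7.75), 34.6-fold (20.04 to 65.4), and a UMI in 77.8% of thinned cycling, 2.52% of non-cycling and 8.16% of non-cycling mesenchymal cells. Ccnb1, cyclin B1, had 184 UMIs in cycling cells and 0 in matched cells, at least 55.6-fold higher when 3 UMIs over the matched class stand for 0. Ccna2, cyclin A2, had 122 against 2 UMIs, a ratio of 55.3 (15.0 to 462), and Ccnb2 was 9.52-fold (5.26 to 18.9) higher. Cks2, a small subunit of the kinase complex, had 406 against 151 CPM, 2.69-fold (2.41 to 3.00). Lin9, a subunit of DREAM, was at 0.83 (0.56 to 1.22).

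After the rule genes, kinesins had the highest median of the lists. Of 14 listed, 11 were measured and all 11 were higher, beside 12.2% of all measured genes. Their median log2 ratio was 4.80, and their sum was 626 against 27.2 CPM, 23.0-fold (18.4 to 29.3). Cenpe, the kinesin that moves chromosomes to the spindle equator, had 128 against 2.79 CPM, 45.8-fold (23.0 to 107). Kif4, which shapes mitotic chromosomes and the midzone, had 180 against 4 UMIs, and Kif23, a cytokinesis motor, 164 against 17. Kif18a, which damps chromosome movements, had the lowest ratio at 6.95 (2.96 to 19.9). Of 30 centromere and kinetochore genes, 28 were measured and 27 were higher, with a median log2 ratio of 2.74. Ndc80, which binds microtubules at the kinetochore, had 147 against 3 UMIs, and Cenpa, the histone H3 of centromeres, 148 against 7.32 CPM, 20.3-fold (13.1 to 33.0). Zwint, a kinetochore adaptor, went the other way with 528 against 601 CPM, 0.88-fold (0.82 to 0.94), and 92.6% of thinned cycling and 95.8% of non-cycling cells had a UMI of it. Of 20 checkpoint genes and mitotic kinases, 18 were measured and 17 were higher, with a median log2 ratio of 3.45. Pbk, a mitotic kinase, had 234 against 4 UMIs. Aurkb, the kinase of the chromosomal passenger complex, had 86 against 0, at least 26.0-fold higher on the same footing. Plk1, which acts at spindle poles and kinetochores, had 51 against 4 UMIs. Bub3, a checkpoint protein, was 1.84-fold (1.52 to 2.25) higher and Mad1l1, which marks unattached kinetochores, was at 1.46 (0.93 to 2.32).

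Spindle genes and tubulins were higher for 17 of 23 measured members of 27, beside 12.2% of all measured genes. Their median log2 ratio was 1.63. Tubb5, a beta-tubulin, had 1708 CPM (1662 to 1754) against 649 CPM (620 to 679), 2.63-fold (2.49 to 2.77). Every thinned cycling cell had a UMI of Tubb5, with 1, 18 and 37 as lowest, median and highest, and non-cycling cells had 0, 6 and 26. Stmn1, which destabilizes microtubules, was 2.37-fold (2.23 to 2.52) higher, and Tpx2, a spindle assembly factor, 26.0-fold (14.4 to 52.7). Tubb2a, another beta-tubulin, was lower at 0.60 (0.46 to 0.78), and 0.75 against all non-cycling cells. Condensin and cohesin genes were higher for 16 of 19 measured members of 20, with a median log2 ratio of 1.13. Smc2, a core subunit of condensin, had 361 against 34.5 CPM, 10.5-fold (8.51 to 12.98), and a UMI in 96.3% of thinned cycling, 23.8% of non-cycling and 18.9% of non-cycling mesenchymal cells. Cdca5, or sororin, which keeps cohesin on chromosomes, had 113 against 2 UMIs, while Wapl, which takes cohesin off, was at 0.99 (0.88 to 1.10). All 14 genes of the anaphase-promoting complex and mitotic exit were measured and 10 were higher, with a median log2 ratio of 0.65. Its ubiquitin-conjugating enzyme Ube2c was 16.2-fold (11.2 to 24.5) higher and Ube2s 2.36-fold (2.17 to 2.58). The inhibitor Fbxo5, or Emi1, had 144 against 3 UMIs, and the core subunit Anapc4 was at 1.10 (0.76 to 1.59). Of 15 cytokinesis genes 14 were measured and 11 were higher, with a median log2 ratio of 2.57. Racgap1, of the centralspindlin complex, had 291 against 3 UMIs, Ect2, the exchange factor it recruits, was 5.64-fold (4.22 to 7.67) higher, and Rhoa, the GTPase they act on, was at 0.94 (0.86 to 1.02).

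**Figure D3:**
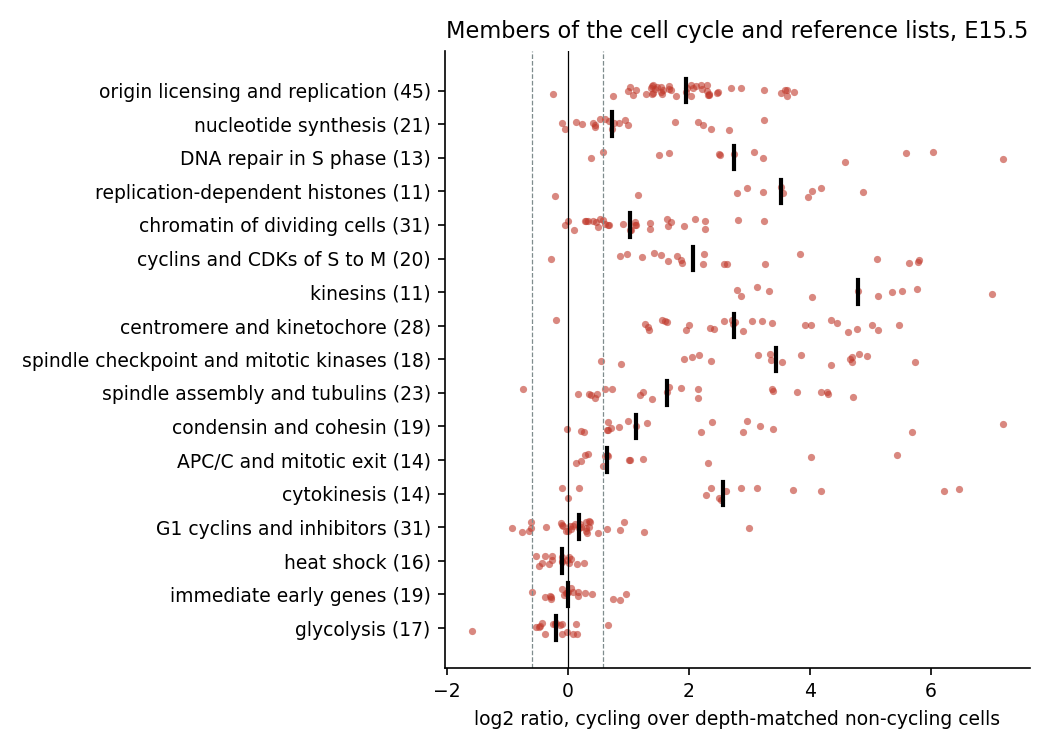
Log2 ratio of cycling over depth-matched non-cycling cells (x axis) for each measured member of 17 gene lists (y axis, number measured in brackets), with a black bar at each median and dashed lines at 1.5-fold. The median was 4.80 for kinesins, 3.52 for histones and 1.95 for origin licensing, and -0.10 for heat shock genes, 0.01 for immediate early genes and -0.20 for glycolysis.

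Promoters are shown for 4 kinesins and 4 licensing genes, since these lists moved together and stand for the mitotic and the replication wave. These are the measured genes of highest ratio whose promoter was matched and not on a chromosome left out of this display. The promoters were read from RefSeq (GRCm38.p6, the build the study's mm10 corresponds to) as the 200 bases before the start, on the strand of the gene. Capitals mark the CCAAT box, the cell cycle homology region in the letters TTTGAA, and an E2F-type site in the letters GCGGGAA. They are marked on either strand where they lie wholly in the stretch, so the box may read ATTGG, the homology region TTCAAA and the E2F-type site TTCCCGC. In order, the kinesin promoters lie at chr19:37376182-37376381 (+), chr17:33890634-33890833 (-), chr3:135212363-135212562 (+) and chrX:100625865-100626064 (+), and the licensing promoters at chr7:79659996-79660195 (+), chr16:18811973-18812172 (-), chr2:5012792-5012991 (-) and chr9:65890123-65890322 (+).
Kif11: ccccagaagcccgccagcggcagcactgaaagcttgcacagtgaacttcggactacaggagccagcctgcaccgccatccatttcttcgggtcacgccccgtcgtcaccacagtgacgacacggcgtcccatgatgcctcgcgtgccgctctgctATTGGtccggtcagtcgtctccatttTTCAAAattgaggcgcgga
Kifc1: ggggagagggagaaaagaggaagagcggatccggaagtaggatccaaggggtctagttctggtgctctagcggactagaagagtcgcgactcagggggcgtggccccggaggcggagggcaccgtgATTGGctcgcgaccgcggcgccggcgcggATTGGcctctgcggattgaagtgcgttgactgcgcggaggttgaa
Cenpe: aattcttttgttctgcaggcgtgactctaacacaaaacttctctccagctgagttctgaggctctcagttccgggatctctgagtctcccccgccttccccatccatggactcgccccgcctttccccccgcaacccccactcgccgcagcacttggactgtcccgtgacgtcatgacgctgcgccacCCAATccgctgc
Kif4: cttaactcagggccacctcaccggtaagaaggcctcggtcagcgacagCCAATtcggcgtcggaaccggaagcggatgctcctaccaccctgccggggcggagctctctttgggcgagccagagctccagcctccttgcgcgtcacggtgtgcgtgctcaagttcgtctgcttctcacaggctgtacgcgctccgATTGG
Ticrr: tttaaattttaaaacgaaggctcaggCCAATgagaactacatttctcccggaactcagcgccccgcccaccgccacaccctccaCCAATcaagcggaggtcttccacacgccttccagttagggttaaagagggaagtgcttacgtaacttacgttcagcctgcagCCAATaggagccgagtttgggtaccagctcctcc
Cdc45: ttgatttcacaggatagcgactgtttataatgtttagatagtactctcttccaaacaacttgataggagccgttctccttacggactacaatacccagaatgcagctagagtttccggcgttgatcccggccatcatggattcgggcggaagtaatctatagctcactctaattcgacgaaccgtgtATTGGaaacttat
Mcm10: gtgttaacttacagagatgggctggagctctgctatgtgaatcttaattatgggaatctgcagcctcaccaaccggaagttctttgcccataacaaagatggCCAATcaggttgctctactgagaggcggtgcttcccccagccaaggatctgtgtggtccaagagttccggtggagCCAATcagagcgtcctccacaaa
Pclaf: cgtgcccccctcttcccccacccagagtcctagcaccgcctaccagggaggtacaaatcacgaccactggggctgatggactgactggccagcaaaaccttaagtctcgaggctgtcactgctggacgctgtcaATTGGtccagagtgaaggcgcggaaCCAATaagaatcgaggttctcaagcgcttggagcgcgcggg

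The motifs were counted in windows from 250 bases before to 50 bases after the start, on both strands. TTTGAA occurred in 10 of 13 kinesin promoters (76.9%), 9 of 13 cytokinesis promoters (69.2%) and 11 of 25 centromere and kinetochore promoters (44%), beside 8 of 46 licensing promoters (17.4%). Lists of no division genes held it too, with 4 of 10 mesenchymal (40%), 2 of 6 endothelial (33.3%) and 3 of 10 epidermal promoters (30%). It occurred in 18.1% of all 27025 promoters and in 11.7% of the 6254 promoters of measured genes. GCGGGAA occurred in 21 of 46 licensing promoters (45.7%), 8 of 16 repair promoters (50%), 5 of 16 condensin and cohesin promoters, 3 of 21 nucleotide synthesis promoters (14.3%) and 0 of 13 kinesin promoters, beside 4.66% of all and 9.39% of measured promoters. Outside the division lists it occurred in 3 of 16 immediate early (18.8%) and 3 of 20 glycolysis promoters (15%). CCAAT occurred in 9 of 13 kinesin (69.2%), 28 of 46 licensing (60.9%) and 12 of 16 cyclin promoters (75%), but in 6 of 13 cytokinesis promoters (46.2%), beside 37.9% of all and 39.0% of measured promoters. It was as frequent in some lists of no division genes, with 7 of 12 heat shock (58.3%), 5 of 7 erythroid (71.4%) and 3 of 5 melanocyte and Schwann promoters (60%). In the Kif11 window TTCAAA began 19 bases and ATTGG 45 bases before the start, and in the Pclaf window GCGGGAA began 5 bases before and 23 bases after it. The Cenpe window held no TTTGAA. Of 8 motifs searched these 3 are given, the others being TTTAAA, TTTCCCGC, TTCCCGCC, TTTGGCGC and TTCGCGC, of which TTTCCCGC and TTCCCGCC contain the reverse complement of GCGGGAA. A match describes letters in a window and was not tested as a binding site, and no replication-dependent histone gene was matched to a promoter.

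Within the cycling cells, genes of S phase that were not part of the S level followed it. The 41 cells with an S level of at least 34 had a median of 33678 UMIs and the other 40 a median of 38365.5. Of 6248 measured genes, 569 (9.11%) were higher and 390 (6.24%) lower in the cells of higher S level. Histones were higher for 10 of 11 measured genes, repair genes for 12 of 12 and nucleotide synthesis genes for 13 of 18, with median log2 ratios of 1.82, 1.43 and 1.03. Hist1h2ap had 579 CPM (540 to 619) in the cells of higher S level and 111 CPM (95.8 to 128) in the others, 5.21-fold (4.45 to 6.14). Rrm2 had 162 against 20.5 CPM, 7.94-fold (5.55 to 11.7), Fbxo5 83.3 against 13.4 CPM, 6.20-fold (3.94 to 10.1), and Esco2 92.2 against 15.8 CPM. Spindle genes were higher for 3 of 21, with a median log2 ratio of 0.17, and APC/C genes were higher for 3 and lower for 1 of 14, with a median of 0.12. Cytokinesis genes outside the levels were higher for 2 of 12, condensin and cohesin genes for 8 of 19 and chromatin genes for 11 of 31, each with a median of 0.46. Of the spindle genes, Tpx2 was at 1.27 (1.01 to 1.60). Ube2c was lower, with 125 against 198 CPM, 0.63-fold (0.52 to 0.76). Of the 6 rule genes 4 were higher, with a median log2 ratio of 0.89. Top2a was 2.38-fold (2.11 to 2.68), Mki67 2.40-fold (2.04 to 2.82), Nusap1 2.05-fold (1.67 to 2.52) and Birc5 1.67-fold (1.39 to 2.01) higher in the cells of higher S level, while Hmmr was at 1.38 (1.13 to 1.68) and Cenpf at 1.13 (0.95 to 1.33). Krt14 was at 1.36 (1.30 to 1.43) and Sfn at 1.00 (0.96 to 1.06).

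Of 37 listed genes of G1 and of cell cycle exit, 31 were measured, 5 were higher and 5 lower, beside 12.2% higher and 5.35% lower of all measured genes, with a median log2 ratio of 0.19. Ccnd2, cyclin D2, had 1122 CPM (1085 to 1159) in cycling and 1751 CPM (1703 to 1800) in matched cells, 0.64-fold (0.61 to 0.67). Its thinned counts were 2, 8 and 33 in cycling and 0, 17 and 62 in non-cycling cells, so the median was lower although the ranges overlap. Ccnd1, cyclin D1, was at 1.04 (0.84 to 1.29). Mxd4, a Max partner that opposes Myc, had 42.0 against 79.5 CPM, 0.53-fold (0.42 to 0.66). Among inhibitors of cyclin-dependent kinases, Cdkn1b (p27) had 44.9 against 18.8 CPM, 2.38-fold (1.73 to 3.32), while Cdkn1a (p21) had 401 against 400 CPM and Cdkn1c (p57) was at 0.94 (0.85 to 1.04). Rbl1 (p107), an E2F target and partner, was 7.93-fold (3.81 to 19.1) higher on 70 against 8 UMIs.

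Other programs are given beside the same shares of all measured genes, 12.2% higher and 5.35% lower. No heat shock gene of 16 measured was past 1.5-fold, with Hsp90ab1 at 1.00 (0.98 to 1.02) and Hspb1 at 0.72 (0.70 to 0.74). Of 19 immediate early genes 3 were higher and 1 lower, with Jun at 1.06 (1.02 to 1.11). The lower one was Fos, at 0.66 (0.57 to 0.77), but it was at 0.99 (0.87 to 1.13) against all non-cycling cells. Its log2 ratio turned positive under 3 alternatives, reaching up to 1.09, and was not past 1.5-fold in each of them. Of 17 glycolysis genes 1 was higher and 1 lower, with Gapdh at 1.12 (1.05 to 1.18). Wnt targets and antagonists had 1 higher and 0 lower of 12, with Ctnnb1 at 1.02 (0.94 to 1.10) and Lgr5, a Wnt target and R-spondin receptor, at 1.40 (1.18 to 1.67). Receptor tyrosine kinase genes and their feedback had 2 higher and 3 lower of 20. Fgfr2, the epithelial FGF receptor, was at 0.94 (0.84 to 1.06). The feedback inhibitors differed, with Spry2 at 71.1 against 164 CPM, 0.43-fold (0.37 to 0.51), and Spry1 at 33.8 against 15.3 CPM, 2.20-fold (1.54 to 3.21). The EGF receptor ligands Hbegf and Epgn were lower, at 0.37 (0.29 to 0.48) and 0.47 (0.34 to 0.63). Against all non-cycling cells the ratios were 0.52 for Spry2, 1.73 for Spry1, 0.41 for Hbegf and 0.44 for Epgn.

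Krt8, Krt18, Krt5, Krt14 and Krt15 are in the rule that chose the mammary cells of both classes, so that the cycling cells carried them is not a finding, and only their levels are compared. Krt14, a basal keratin, had 2238 against 2624 CPM, 0.85-fold (0.83 to 0.88), and every thinned cycling cell had a UMI of it, with a lowest, median and highest of 1, 20 and 87 against 0, 25 and 96. Krt5, its partner, had 508 against 981 CPM, 0.52-fold (0.49 to 0.55). The simple keratins Krt8 and Krt18 were at 0.96 (0.91 to 1.01) and 0.95 (0.90 to 1.01), and at 1.10 and 1.06 against all non-cycling cells. Of 12 keratins 11 were measured, 1 was higher and 5 lower, beside 12.2% higher and 5.35% lower of all measured genes. Besides Krt5 the lower ones were Krt15, Krt19, Krt7 and Krt6a, and these rested on few cells. A single matched cell held 1024 of 1522 UMIs of Krt15, 41 of 46 of Krt7 and 104 of 135 of Krt6a each came from a single cell, and 2 cells held 72.5% of the Krt19 UMIs. Without the 2 non-cycling cells that had at least 100 UMIs of Krt4, a keratin of wet stratified epithelia, 2 keratins were lower.

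Basal-like and luminal-like genes depended on the reference. The lists follow the study, which chose them on these samples, so they are not independent evidence of direction. Of 18 basal-like genes 16 were measured against matched cells, and 7 were higher (beside 12.2% of all genes) and 0 lower, with a median log2 ratio of 0.51. Pthlh, the hormone by which the bud instructs its mesenchyme, had 69.2 against 19.9 CPM, 3.48-fold (2.59 to 4.75), and Ndnf, a secreted factor, was 2.16-fold (1.76 to 2.67) higher. Against all 364 non-cycling cells, where 10.1% of 9505 genes were higher and 5.21% lower, 2 of 18 were higher and 1 lower, with a median log2 ratio of 0.12, and the ratios of Pthlh and Ndnf were 1.74 (1.47 to 2.07) and 1.32 (1.16 to 1.51). Trp63, the master factor of basal cells, was at 1.14 (0.94 to 1.38), and Sox11, a factor of fetal progenitors, at 0.84 (0.79 to 0.89). All 18 luminal-like genes were measured, and 0 were higher and 7 lower (beside 5.35% of all genes) against matched cells, with a median log2 ratio of -0.42, while 4 were lower against all non-cycling cells, with a median of -0.20. The 7 include Lgals3 (galectin 3) at 0.22 (0.18 to 0.27), Anxa1 (annexin A1) at 0.36 (0.33 to 0.40) and Krtdap, a protein of suprabasal keratinocytes, at 0.37 (0.35 to 0.39). Against all non-cycling cells these 3 were at 0.46, 0.54 and 0.66, and Ly6d moved from 0.53 to 1.14. Epidermal markers, among them Krtdap, were lower beside this list, with 4 of 5 measured lower against matched cells and 2 of 8 against all non-cycling cells. The tight junction gene Cldn4 and the factor Klf5 were at 0.99 (0.94 to 1.03) and 1.02 (0.97 to 1.08). The matched non-cycling cells, which are the deeper ones, were richer in luminal-like UMIs. Thinned to 10000 UMIs, the median luminal-like level was 67 in cycling, 85 in matched and 73 in all non-cycling cells, while the basal-like level was 17, 17 and 18.

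**Figure D4:**
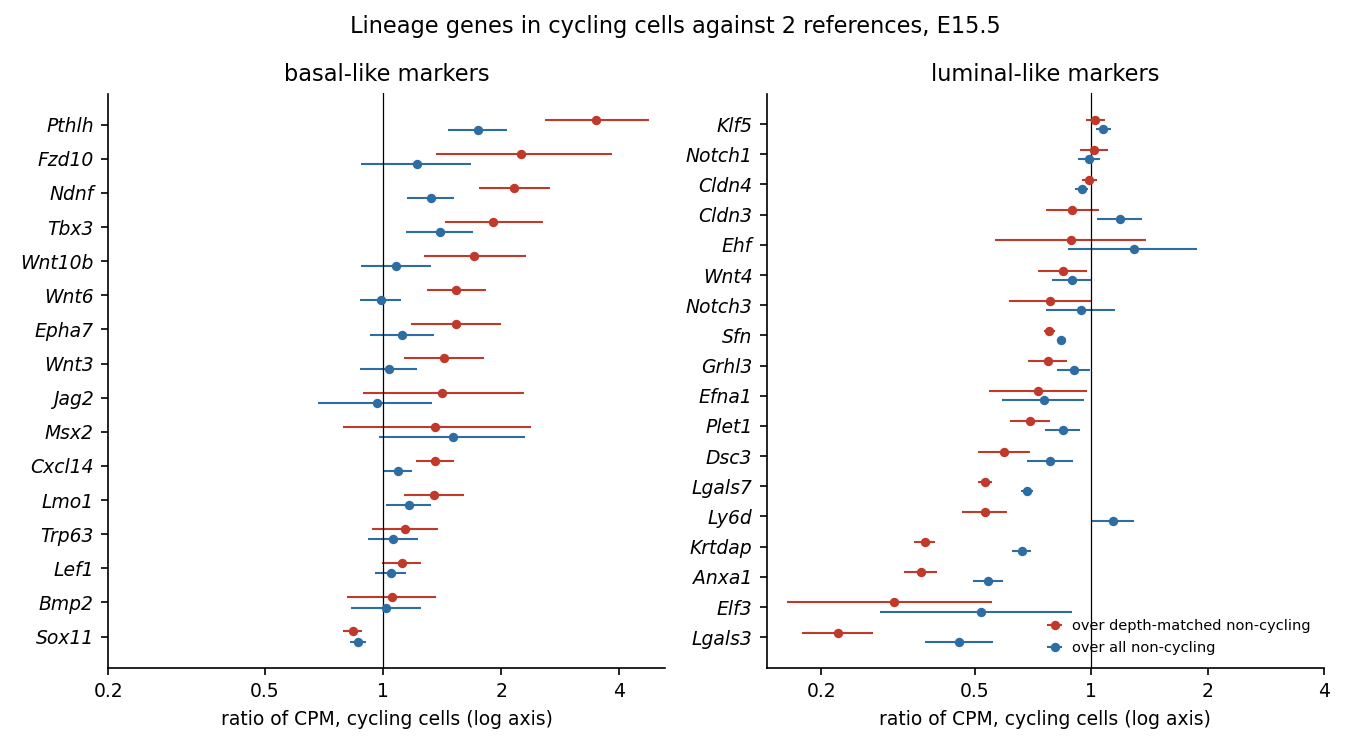
Ratio of CPM in cycling cells (x axis, log scale) for the measured basal-like genes (left) and luminal-like genes (right), against depth-matched cells in red and against all non-cycling cells in blue, with exact 95% intervals. Of the basal-like genes, 7 were at least 1.5-fold higher in red and 2 in blue, and of the luminal-like genes, 7 were at least 1.5-fold lower in red and 4 in blue.

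Cycling cells were found in every group of both lineage scales, with the lowest share at the highest luminal-like level. Over 4 groups of rising basal-like level the cycling share was 18.7%, 21.6%, 14.4% and 19.3%, with no group outside the counting intervals of the others. Over 4 groups of rising luminal-like level it was 21.4%, 21.3%, 19.4% and 11.8%. The last is 13 of 110 cells (6.45 to 19.4), and this share lies below the counting intervals of all the other groups. Its own interval overlaps theirs. The median depth of these 4 groups was 23455, 24306, 25532 and 27018 UMIs, so the group with the lowest share was the deepest. The hybrid level, from 4 genes, had a median of 2 in cycling, 2 in matched and 3 in all non-cycling cells, and of these genes Epgn was the only one past 1.5-fold.

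Markers of other cell types were followed beside these values. Ptprc and Tyrobp of immune cells, Cdh5 of endothelium, Myod1 of muscle and Alas2 of red cells had 0 UMIs in both classes, and Pecam1 had 2 UMIs in cycling and 14 in matched cells. The 10 endothelial genes summed to 17.4 against 41.1 CPM, the most abundant being Flt1, the 11 immune genes to 12.01 against 10.5 (Cd68) and the 9 erythroid genes to 0.632 against 0. The 11 melanocyte and Schwann genes summed to 142 against 171 CPM, nearly all from Erbb3, which mammary epithelium also expresses, and the 11 muscle genes to 320 against 432, mostly from Tagln. Of 3 measured muscle genes Tagln was lower while 2 were higher, beside 5.35% lower and 12.2% higher of all measured genes. Acta2 had 128 UMIs in 36 cycling cells against 60 in 18 matched cells, and Cnn1 had 47 against 22 UMIs. Against all non-cycling cells 1 of the 3 was higher and 1 lower, with a median log2 ratio of -0.08. There Acta2 had 387 UMIs in 83 of 364 cells. The study also names Acta2 as a marker of basal mammary cells at P0. The 15 mesenchymal genes summed to 486 against 377 CPM, with 1 of 7 measured higher and 0 lower, the most abundant being Fn1, and Pdgfra had 4 against 1 UMI and Twist2 3 against 1. At least 5 UMIs of the 3 collagen genes of the rule were found in 12 of 81 cycling and 31 of 364 non-cycling cells. Epidermal markers summed to 1377 against 3091 CPM over 15 genes, with 0 higher and 4 lower of 5 measured, and Krtdap the most abundant. Against all non-cycling cells, at 1788 CPM, 2 of 8 measured were lower, with a median log2 ratio of -0.31. Krt10, a keratin of differentiating epidermis, had 157 UMIs in 55 cycling cells and 115 in 51 matched cells. At least 2 UMIs of Krt1, Krt10 and Lor, the markers of keratinizing skin, were found in 39 of 81 cycling, 30 of 81 matched and 89 of 364 non-cycling cells. Without them the cycling share was 13.2%, from 42 cycling cells, and their part in the other results was not tested beyond the counts given with the alternatives.

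The median mitochondrial share was 4.84% in cycling, 4.90% in matched and 5.03% in all non-cycling cells, and a single cycling cell was as low as 0.136%. Ribosomal protein genes took a median of 18.6% of UMIs in cycling, 20.003% in matched and 21.001% in all non-cycling cells. At 10000 UMIs the median number of genes detected was 3119, 3017 and 2998. A doublet caller marked 3 of the 816 kept cells and no mammary cell. Whether it worked on these cells was not tested, so doublets are not taken as excluded. The caller's median score was 0.0534 in cycling and 0.0366 in non-cycling mammary cells, and doublets were otherwise left out only by the sort gate.

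The same split was then made in cells that had no part in choosing these 81. E15.5 mesenchymal cells (at least 10 UMIs of the collagen genes and more than 2 times the epithelial UMIs) were cycling in 80 of 279 cases (28.7%, 23.4 to 34.4). The E13.5 library held 18 cycling among 61 mammary epithelial cells (29.5%, 18.5 to 42.6), the E14.5 library 1 among 23 (4.35%, 0.11 to 21.9) and the P0 library 15 among 227 (6.61%, 3.75 to 10.7). Shares were not compared between stages, since each is a single library and depths differ, with a median of 9832 UMIs over non-cycling mammary cells at P0, 17328 at E13.5 and 27540 at E14.5. Each set of cycling cells was again paired by depth with non-cycling cells of its own library, apart from the single cell of E14.5. The pairing was looser here, with median UMIs of 34052 in cycling and 27226 in paired cells of mesenchyme and 25220.5 and 19561 at E13.5. At P0 the medians were close, at 19929 and 19792, but the summed UMIs were 351704 and 277141. The part of the looser pairing in the ratios was not tested.

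Of 7802 genes measured in mesenchyme, 14% were higher and 7.7% lower in cycling cells. Of 2571 at E13.5, 12.3% were higher and 10.9% lower, and of 1925 at P0, 15.7% were higher and 15% lower. Of the 854 genes that were higher in cycling epithelium at E15.5 and measured in mesenchyme, 470 (55.04%) were higher there too, beside 13.2% of all genes measured in both. The share was 138 of 213 (64.8%, beside 12.1%) at E13.5 and 99 of 129 (76.7%, beside 15.51%) at P0. For the lower genes it was 51 of 240 (21.3%, beside 6.46%), 18 of 67 (26.9%, beside 10.8%) and 34 of 63 (54.0%, beside 14.4%). In mesenchyme 47 of 52 licensing genes, all 13 kinesins and all 16 histones measured were higher, at E13.5 21 of 23 licensing genes and 12 of 13 histones, and at P0 4 of 6 licensing genes and all 9 histones. Each set was split by the same 6 genes. A gene low in non-cycling cells reached the minimum only by being high in cycling cells. The overlaps and counts of members are thus descriptions and not independent support.

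These cells were split by the same 6 genes, which fixes the direction of Top2a in each set. Top2a was 51.9-fold (37.9 to 73.2) higher in cycling mesenchyme, 11.04-fold (6.65 to 19.7) at E13.5, and had 307 UMIs against 1 at P0. Hmgb2 was 8.73-fold, 5.96-fold and 11.4-fold higher in the same order, and Smc2 7.40-fold, 6.51-fold and 19.5-fold. Hist1h2ap was 35.03-fold (27.6 to 45.1) higher in mesenchyme and 21.6-fold (17.9 to 26.4) at E13.5, and had 752 against 3 UMIs at P0. Tubb5 was 1.98-fold (1.89 to 2.07) higher in mesenchyme, 5.49-fold (4.53 to 6.69) at E13.5 and 7.56-fold (5.19 to 11.4) at P0, beside 2.63-fold in E15.5 epithelium. The ratios of 5 of the 6 Mcm2 to Mcm7 genes had intervals that did not overlap between the tissues. Mcm3 was 11.6-fold (7.55 to 18.5) higher in E15.5 epithelium and 2.28-fold (1.83 to 2.87) in mesenchyme, with non-cycling levels of 8.02 and 50.3 CPM. Mcm6 was 3.85-fold (2.90 to 5.19) and 1.31-fold (1.07 to 1.60) higher, with non-cycling levels of 20.9 and 77.3 CPM. Mcm5 was at 7.25 (4.37 to 12.8) and 1.80 (1.37 to 2.39), Mcm4 at 2.95 (2.28 to 3.84) and 1.38 (1.08 to 1.76), and Mcm2 at 2.61 (1.62 to 4.34) and 0.99 (0.68 to 1.46). Mcm7 was the exception, at 2.67 (2.20 to 3.26) and 2.17 (1.74 to 2.74). In cycling cells the levels were 92.6 and 115 CPM for Mcm3 and 80.6 and 101 CPM for Mcm6. These intervals cover counting error within a single library, so the difference between the tissues was not tested over replicates. Ccnd2 was lower in cycling mesenchyme, 0.46-fold (0.42 to 0.49), and at E13.5, 0.42-fold (0.36 to 0.48), and had 9 against 1 UMIs at P0. Mxd4 was at 0.40 (0.32 to 0.50) in mesenchyme.

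**Figure D5:**
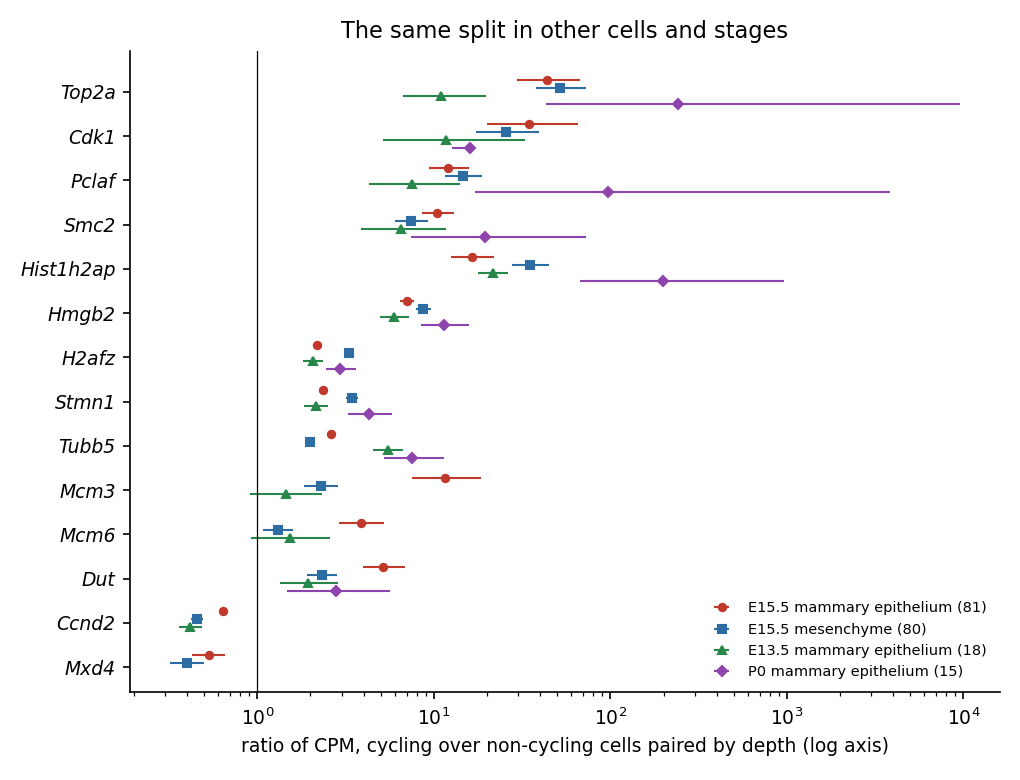
Ratio of CPM in cycling over non-cycling cells paired by depth (x axis, log scale) with exact 95% intervals for 14 genes in E15.5 mammary epithelium (81 cycling cells), E15.5 mesenchyme (80), E13.5 (18) and P0 mammary epithelium (15). The P0 point of Cdk1 is a lower bound from 61 against 0 UMIs, and points with too few UMIs are not drawn; Mcm3 was 11.6-fold higher in E15.5 epithelium and 2.28-fold in mesenchyme.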

How the data were processed

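The authors deposited raw UMI counts per gene and barcode, one table per stage, made with 10x Cell Ranger on the pre-built mm10 reference. The submitters' processing notes name Cell Ranger 6.0.0, and the table header of E15.5 names 3.1.0. Every deposited barcode has at least 500 UMIs. The filters on depth and mitochondrial share follow the study, which worked in Seurat. Counts were analysed with Python 3.11.15, NumPy 2.4.6, SciPy 1.17.1, pandas 2.3.3 and, for doublets, scanpy 1.11.5. Cycling cells were matched in depth without replacement, deepest first, and the largest difference within a pair was 1.52-fold. No test was run, since each stage is 1 library. Ratios and intervals were tested on simulated counts drawn from the Poisson model that the intervals assume. Spread between cells was not simulated, so their coverage in these data was not tested.

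The cells, the 32 gene lists and the contrasts were chosen with earlier results of these data known. Genes are named by rule: rule genes and markers, each list's most abundant, highest and lowest member, and among genes of at least 200 UMIs in no list the 10 highest and 10 lowest. Other genes named in the text were picked for their role after values were seen. Alternatives changed the UMI limit, filters, reference cells, gene minimum and depth. Some genes that this rule names are not reported here.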

Additional observations from a re-analysis of the deposited data

How the results depend on the processing

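A share was taken as moved outside its 95% binomial interval and a count of genes past 1.5 times its value. Over 18 settings, 34 of 266 shares and counts moved. Without called doublets, without non-cycling cells of high S level, with a UMI minimum of 10000 and with the stricter epithelial ratio, the gene counts and ratios could not move, because the same cells were compared. Of 1344 ratios of named genes, 159 moved and 6 changed sign. The counts and ratios that could not move are included in both totals. The cause was not tested except where fewer genes, UMIs or cells were left by construction. No paired analysis was possible because each stage has 1 library and no replicate.

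The cycling share was 19.6% with a limit of 5 UMIs, 16.0% with at least 20 against under 5 UMIs, 16.2% with 4 UMIs per 10000, 16.4% with a mitochondrial maximum of 10%, 18.5% with a UMI minimum of 10000 and 18.3% with a stricter epithelial ratio. Without cells holding Krt1, Krt10 and Lor (42 cells a class) it was 13.2%, and 13.3% of 5913 measured genes were higher and 6.78% lower. Members at least 1.5-fold higher were 6 of 8 measured for repair, 12 of 14 for cyclins, 7 of 7 for kinesins and 6 of 7 for histones. Their median log2 ratios were 2.23, 1.60, 5.36 and 3.19. Of basal-like genes 8 of 13 were higher (0.69), and 5 of 16 luminal-like genes (-0.46) and 1 of 8 keratins were lower. There the log2 ratio of Krt16 turned from 0.61 to -0.44, that of Fos from -0.59 to 1.09 and that of Asprv1 from -2.65 to 0.10. Against all non-cycling cells 2 of 18 basal-like genes were higher and 4 of 18 luminal-like genes lower, beside 10.1% and 5.21% of all genes.

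With every cell thinned to 5000 UMIs, against all non-cycling cells, fewer genes reached the minimum, and 477 (9.4%) were higher and 446 (8.78%) lower. Higher were 22 of 22 measured for licensing (median log2 ratio 1.93), 6 of 9 for nucleotide synthesis (0.88), 0 of 0 for repair, 6 of 6 for cyclins (1.502), 2 of 2 for kinesins (6.71), 6 of 7 for centromeres (3.01) and 3 of 3 for checkpoint (2.10). So were 7 of 12 for spindle (0.93, from 1.63), 7 of 11 for condensin (0.67, from 1.13), 3 of 6 for cytokinesis (1.32, from 2.57), 2 of 3 for histones (2.61) and 3 of 13 basal-like (0.08). Lower were 2 of 16 luminal-like genes and 3 of 9 keratins. The log2 ratio was 0.25 for Fos and 0.15 for S100a14 (from -1.30). With a gene minimum of 20 UMIs, 1558 genes were higher and 781 lower, with 19 for repair and 18 for histones. With no minimum, 2896 of 16674 genes (17.4%) were higher and 1889 (11.3%) lower, with 21 of 23 repair genes and 27 of 31 histones higher. Of the alternatives chosen after seeing the data, leaving out the Krt4-rich cells left 2 of 10 keratins lower, beside 5.25% of all genes, and a log2 ratio of 0.72 for Fos. Another used cells of 25000 to 40000 UMIs (51 against 118), where 12.5% of 7460 genes were higher and 8.18% lower. It gave 7 of 7 measured kinesins (median log2 ratio 4.92) and 4 of 16 basal-like genes (0.35) higher, and 9 of 18 luminal-like genes lower (-0.59).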

Other observations

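Among genes of at least 200 UMIs in no list, the 10 of highest ratio are given here. Shcbp1, which binds the centralspindlin complex at the midbody, had 84.7 CPM in cycling and 3.14 CPM in depth-matched cells, 27.0-fold (14.01 to 59.7). Cdca3, a trigger of mitotic entry, was 22.6-fold (11.2 to 53.0) higher, and Zfp367, a zinc finger factor, 15.7-fold (9.20 to 29.2). Atad2, a bromodomain ATPase, was 7.29-fold higher and Dnajc9, a histone chaperone, 5.16-fold (3.88 to 6.99). Usp1, the deubiquitinase of PCNA and FANCD2, was 4.53-fold, Topbp1, which activates the ATR kinase, 3.20-fold, and the histone methyltransferase Nsd2 3.96-fold higher. Ccdc34 was 3.71-fold and the chromatin remodeler subunit Baz1b 2.97-fold higher. They were spread over the cells, since 70 of 81 cycling cells had a UMI of Shcbp1 and 78 had one of Topbp1.

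Of the 10 of lowest ratio, Sprr1a, a precursor of the cornified envelope, had 51.5 against 276 CPM, 0.19-fold (0.16 to 0.22), and 0.32-fold against all non-cycling cells. Sprr1b was at 0.25 (0.18 to 0.34) and Asprv1, a protease of the granular layer, at 0.16 (0.12 to 0.21), of which 2 matched cells held 56.7% of the UMIs. Without cells holding Krt1, Krt10 and Lor its log2 ratio turned from -2.65 to 0.10. H19, an imprinted noncoding RNA, had 244 against 550 CPM, 0.44-fold (0.41 to 0.48), and 0.73-fold against all non-cycling cells. Krt4 had 1 against 698 UMIs, of which 697 came from a single cell.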
